A study of Mus musculus with 6 samples.

Results

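The genes described here were the ligands and receptors of the interleukin-1 (IL-1) family, together with the protease that matures 2 of the ligands. They were 10 genes taken by name from the 24063 gene symbols in the data: the ligands Il1a, Il1b, Il18 and Il33, the antagonist Il1rn, the receptors Il1r1, Il1r2 and Il1rl1, the shared receptor chain Il1rap, and Casp1. RNA was compared between penile tumors of 3 SA mice (PB-Cre+ Smad4L/L ApcL/L) and penile epithelium of 3 wild type (WT) C57BL/6 mice. All mice were 5 months old, and no carcinogen was given. In SA mice, Cre is driven by an androgen-responsive promoter best known from the prostate, which is also active in the penile epithelium, and it deletes both loxP-flanked genes in the cells where it is expressed. The WT mice are labelled without Cre or floxed alleles, and the strain background of the SA mice is not in the labels, so that tumor, transgene and strain cannot be told apart. Whether the mice of the groups shared litters or harvest days was not given in the sources used here.

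Cytokines of the IL-1 family alert tissue to damage and infection. IL-1α and IL-1β bind the same receptor, IL1R1, which signals only after it recruits IL1RAP, whereas IL1R2 binds the same ligands without signaling and acts as a decoy. The antagonist encoded by Il1rn occupies IL1R1 without recruiting the second chain. IL-33 signals through ST2, the product of Il1rl1, again with IL1RAP, and IL-18 has a receptor pair of its own. IL-1β and IL-18 are made as inactive precursors that caspase-1, assembled on inflammasomes, cleaves. Squamous epithelium stores IL-1α, IL-18 and IL-33, while IL-1β is made mainly by activated myeloid cells.

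The gene rows of a library held between 23828283 and 110509147 counts, and the deepest, SA library 3, had 4.42 times the median total of the remaining libraries. Levels are given as TMM-normalized counts per 1e+06 (CPM), and a count of 3, the floor used here, equals 0.0244 to 0.137 CPM. Fold changes, standard errors (SE) and adjusted p-values are from edgeR's quasi-likelihood test over 16336 genes, whose median log2 fold change was 0.03. Keratinocyte markers were high in both groups, and their sum was 20639 to 26205 CPM in SA tumors and 60266 to 68629 CPM in WT penises. Smooth muscle markers also differed, with sums of 34.9 to 120 CPM in SA tumors and 1476 to 1966 CPM in WT penises. The counts cover whole transcript rows and cannot show the deletion of single exons. Smad4 was lower in SA tumors by a log2 fold change of -0.77 (adjusted p = 0.00114), and Apc was higher by 1.43 (adjusted p = 0.000185). Reads of the deleted exons were not analysed here.

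All 10 genes had a promoter window in the RefSeq table for GRCm38.p6, 15 windows in all, each from 250 bases before to 50 bases after a start site. The 250 bases before the start are shown for the 4 genes that were higher in SA tumors. They were searched on both strands, with the last 50 bases, for an AP-1 site (TGANTCA), a TCF/LEF site (CTTTGAA or CTTTGAT) and a GATA site (AGATAA), and capitals mark the matching letters.
Il1b, chr2:129371140-129371389, minus strand: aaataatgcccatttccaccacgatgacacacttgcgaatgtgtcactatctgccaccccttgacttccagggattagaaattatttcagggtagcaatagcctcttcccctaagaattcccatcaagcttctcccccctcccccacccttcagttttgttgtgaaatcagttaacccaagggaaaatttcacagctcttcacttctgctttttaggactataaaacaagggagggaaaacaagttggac
Il1a, chr2:129309973-129310222, minus strand: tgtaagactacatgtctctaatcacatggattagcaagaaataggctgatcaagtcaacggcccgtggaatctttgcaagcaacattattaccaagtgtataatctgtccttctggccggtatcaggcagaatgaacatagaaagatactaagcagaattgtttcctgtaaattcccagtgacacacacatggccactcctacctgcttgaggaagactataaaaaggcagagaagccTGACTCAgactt
Il1rn, chr2:24336610-24336859, plus strand: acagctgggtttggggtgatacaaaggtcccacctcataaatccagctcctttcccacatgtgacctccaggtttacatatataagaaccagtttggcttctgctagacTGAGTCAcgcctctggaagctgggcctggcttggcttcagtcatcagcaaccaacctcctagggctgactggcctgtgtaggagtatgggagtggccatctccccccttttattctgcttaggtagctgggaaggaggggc
Il1rl1, distal start, chr1:40429320-40429569, plus strand: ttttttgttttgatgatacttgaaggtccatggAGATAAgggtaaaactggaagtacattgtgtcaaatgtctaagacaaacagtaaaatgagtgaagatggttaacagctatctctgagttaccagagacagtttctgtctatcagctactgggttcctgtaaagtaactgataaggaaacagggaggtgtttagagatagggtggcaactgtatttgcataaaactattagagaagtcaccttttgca
Il1rl1, proximal start, chr1:40439379-40439628, plus strand: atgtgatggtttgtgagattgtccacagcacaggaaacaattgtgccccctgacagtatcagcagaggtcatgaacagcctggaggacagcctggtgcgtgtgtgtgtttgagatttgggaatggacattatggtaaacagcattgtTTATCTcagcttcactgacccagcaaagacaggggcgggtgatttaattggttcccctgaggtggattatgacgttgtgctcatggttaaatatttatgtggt

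The Il1b window held none of the 3 motifs in these letters. Il1a held an AP-1 match 12 bases before its start, and the Il1rn window shown held one 141 bases before its start. Il1rn has 3 windows, and those not shown held none of the 3 motifs. Of all 32851 windows in the table, 7.81% held an AP-1 match. Each Il1rl1 window held 1 GATA match, 217 bases before the distal start and, on the minus strand, 103 bases before the proximal start, against 11.2% of all windows. No window of the 10 genes held the TCF/LEF letters, found in 8.65% of all windows. No match overlapped a match to another motif. A match of letters is a description, and no binding was measured.

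Il1b was the ligand that differed most. Its RNA was close to the floor in WT penises and abundant in SA tumors, while Il1a and the antagonist gene Il1rn rose by much smaller factors. The IL-33 receptor gene Il1rl1 rose too, by a log2 fold change of 5.95 in the row of its soluble form and 3.48 in that of its membrane form, against 6.72 for Il1b. At an adjusted p under 0.01, Il18 was the 1 gene of the 10 that fell. Il33, Il1rap and Casp1 were also lower in every SA library than in any WT library, but did not pass. The thresholds of the study were an adjusted p under 0.01 together with a log2 difference of 2 or more in size. Past both, 2 of the 10 were higher (Il1b and Il1rl1) against 9.41% of all genes tested, and 0 were lower against 3.59%. No decrease reached that size, so that an unadjusted p under 0.05 and DESeq2 also gave 0 lower members. At the adjusted p alone, 4 were higher (Il1a, Il1b, Il1rn and Il1rl1) against a background of 20.1%, and 1 was lower (Il18) against 17.5%. The median log2 fold change of the 10 was -0.20, so that the increases were carried by a few members. All 10 passed the filter on low counts.

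**Figure D1:**
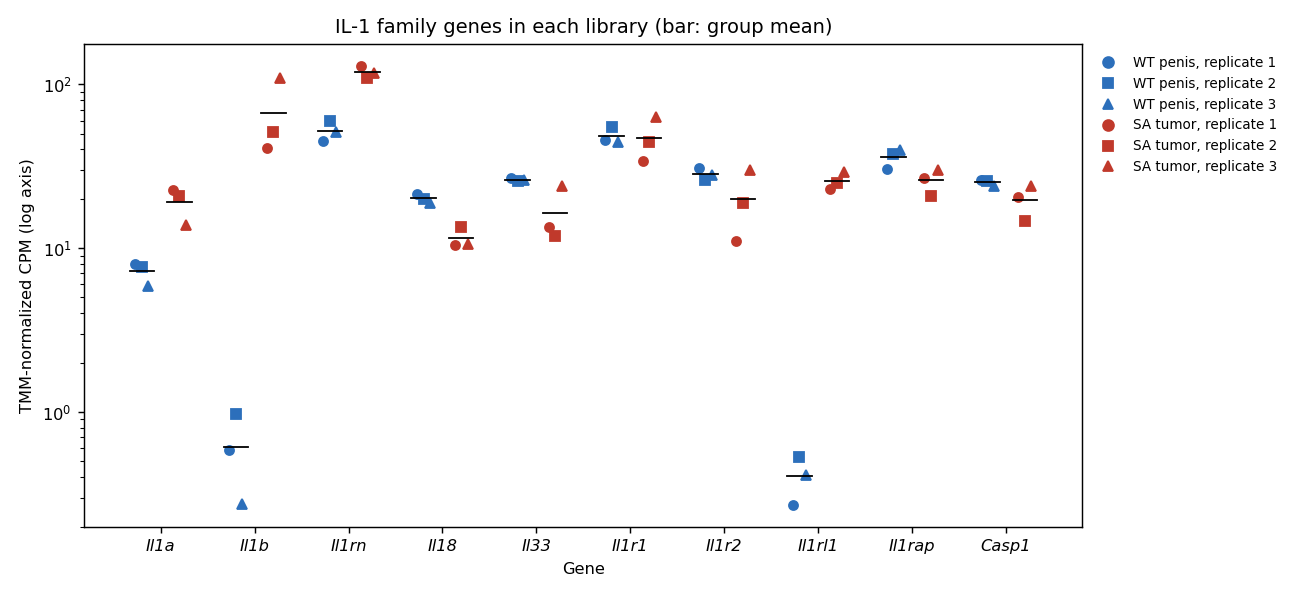
Level of each gene in each library, in TMM-normalized CPM on a log axis, with WT penises in blue, SA tumors in red, and a bar at each group mean (n = 3). Il1b and Il1rl1 stayed below 1 CPM in all WT libraries and lay above 20 CPM in all SA libraries.

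Il1b (NM_008361) lies on chromosome 2 at 129364570 to 129371139 of GRCm38, the build called mm10, on the minus strand. Its level was 40.8, 51.4 and 109 CPM in the 3 SA tumors and 0.588, 0.968 and 0.273 CPM in the 3 WT penises. The WT values rested on 13, 29 and 6 reads, and the SA values on 1099, 1552 and 13415. Every SA library was far above every WT library, and the deepest, SA library 3, was highest. SA tumors averaged 67.1 ± 36.7 CPM against 0.610 ± 0.348 CPM for WT penises (SD, n = 3 each), a ratio of 110. The fitted log2 fold change was 6.72 (SE 0.583, 95% interval 5.32 to 8.11, adjusted p = 0.000130), and it was between 6.17 and 7.26 with each library left out in turn. More cells of a type and more RNA per cell cannot be told apart in such bulk tissue. The neutrophil markers moved with Il1b: all 7 that were tested, of 8 listed, were higher past both thresholds, and their sum was 1739, 1428 and 2493 CPM in SA tumors against 121, 79.1 and 56.7 CPM in WT penises. Without S100a8 and S100a9, which keratinocytes can also express, the sum of the other 5 was 29.9, 43.5 and 91.8 CPM against 4.07, 4.21 and 1.82 CPM. That shorter list was chosen after its values were seen. SA library 3 was highest and SA library 1 lowest in it, as in Il1b, and also in the sums of the macrophage, mast cell, T cell, fibroblast, endothelial and smooth muscle markers. The sum of 8 macrophage markers overlapped between the groups, at 139, 320 and 333 CPM in SA tumors and 227 to 323 CPM in WT penises. The part of neutrophils in the Il1b result was not tested. A gene on the opposite strand, Il1bos, overlaps Il1b, and the strand setting of the counting was not given in the sources used here, so that reads of the pair cannot be told apart.

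Il1a (NM_010554, chromosome 2, 129299610 to 129309972, minus strand), the neighbor of Il1b, encodes the ligand that is active without caspase-1. Its level was 22.6, 20.9 and 13.8 CPM in SA tumors and 8.05, 7.71 and 5.83 CPM in WT penises. The groups did not overlap, and the SA library with the most Il1b had the least Il1a. The means of 19.1 ± 4.67 and 7.20 ± 1.19 CPM (SD, n = 3 each) differed by a log2 fold change of 1.40 (SE 0.220, adjusted p = 0.000889). Per library, Il1b RNA per kilobase was 2.68, 3.66 and 11.7 times that of Il1a in SA tumors and 0.109, 0.187 and 0.0697 times in WT penises, so that the leading IL-1 ligand was Il1a in each WT library and Il1b in each SA library. The flanking gene Ckap2l did not pass the test (log2 fold change 0.02, adjusted p = 0.915), and F830045P16Rik on the other side was too low to be tested. Il1a also has an overlapping gene on the opposite strand, Gm14023, as have Il1r2 (Gm16894) and Il1rap (Gm20319).

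Il1rn (NM_031167, chromosome 2, 24336853 to 24351494, plus strand) had the highest mean CPM of the 10 genes in WT penises and in SA tumors, although its WT range overlapped that of Il1r1. It was measured at 129, 109 and 117 CPM in SA tumors and at 45.1, 60.0 and 51.0 CPM in WT penises. The spread was small beside the gap between the groups, and the log2 fold change was 1.18 (SE 0.128, adjusted p = 0.000115). The 3 transcript rows of Il1rn shared nearly all reads, since the row used and the NM_001039701 row stood in a ratio of 1.04 ± 0.00954 among SA tumors and 1.03 ± 0.0102 among WT penises (SD, n = 3 each). The antagonist was set against both agonists by dividing Il1rn by the sum of Il1a and Il1b, each in CPM per kilobase. That ratio was 1.24, 0.897 and 0.531 in SA tumors and 4.05, 5.25 and 6.55 in WT penises. It was lower in every SA library than in any WT library although Il1rn itself rose. The ratio describes RNA and is given without a test, and an exact permutation test of 3 against 3 libraries could not go below a p of 0.10.

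**Figure D2:**
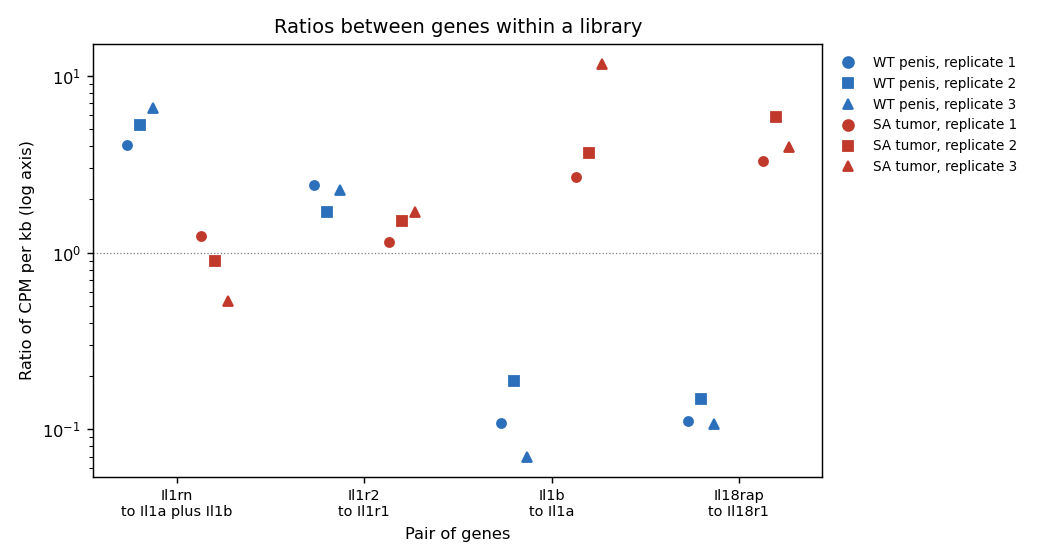
Ratio of levels per kilobase within each library on a log axis, with WT penises in blue and SA tumors in red. Il1rn to Il1a plus Il1b was 4.05 to 6.55 in WT penises and 0.531 to 1.24 in SA tumors, while Il1r2 to Il1r1 overlapped between the groups.

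Il18 (NM_008360, chromosome 9, 50554827 to 50581840, plus strand) moved the other way. Its level was 10.4, 13.4 and 10.6 CPM in SA tumors and 21.5, 19.8 and 18.9 CPM in WT penises, without overlap. The fitted change was -0.81 on the log2 scale (SE 0.143, adjusted p = 0.00169). Scaled by library totals alone, which moved the median of all genes by 0.29, it was -0.52 and missed the threshold (adjusted p = 0.0118). Among the keratinocyte markers 5 of 6 fell too, by log2 fold changes of -0.82 for Trp63 to -2.28 for Lor, and their part in the lower Il18 was not tested. Bco2 and Tex12 overlap Il18 on the opposite strand.

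Il33 (NM_001164724, chromosome 19, 29925114 to 29960718, plus strand), the nuclear alarmin and ligand of ST2, was measured at 13.5, 11.8 and 24.0 CPM in SA tumors and at 26.8, 25.7 and 26.0 CPM in WT penises. The WT libraries were nearly equal, and the third SA library was close to them. The log2 fold change was -0.66 (SE 0.248, adjusted p = 0.0528). Without the third SA library it was -1.05 (adjusted p = 0.000324), so that this library decides the call.

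The receptor genes did not move together. Il1r1 (NM_001123382, chromosome 1, 40225080 to 40317257, plus strand), the signaling receptor for both IL-1 ligands, was expressed at 34.2, 44.3 and 62.7 CPM in SA tumors and at 45.7, 55.0 and 44.4 CPM in WT penises. The groups overlapped, and the difference had an interval around 0, with a log2 fold change of -0.04 (95% interval -0.51 to 0.44, adjusted p = 0.896). Its sign depended on the scaling and on which library was included. The decoy receptor gene Il1r2 (NM_010555, chromosome 1, 40074079 to 40125231, plus strand) was at 11.0, 18.7 and 29.8 CPM in SA tumors and at 30.8, 26.1 and 28.0 CPM in WT penises. It overlapped as well, with a log2 fold change of -0.50 (95% interval -1.24 to 0.25, adjusted p = 0.224), and without the third SA library it was -0.92 (adjusted p = 0.00931). Per kilobase, Il1r2 was 1.15, 1.51 and 1.70 times Il1r1 in SA tumors and 2.41, 1.70 and 2.25 times in WT penises, an overlap of the groups. The fibroblast markers summed to 1024, 2901 and 3804 CPM in the 3 SA tumors and to between 5008 and 5270 CPM in WT penises. The SA libraries had the same order in that sum as in Il1r1 and Il1r2, an order that the macrophage, mast cell, T cell, endothelial and smooth muscle sums shared, and the part of these in the spread was not tested.

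Il1rl1 spans 40429570 to 40465415 on the plus strand of chromosome 1, and its row used here (NM_010743) spans 40439776 to 40448148 in GENCODE. It had the smallest p-value of the 10 genes. Its level was 23.0, 24.9 and 29.2 CPM in SA tumors and 0.271, 0.534 and 0.410 CPM in WT penises. Unlike Il1b, it was nearly equal in the 3 tumors. The means of 25.7 ± 3.16 and 0.405 ± 0.132 CPM (SD, n = 3 each) stood in a ratio of 63.5, and the log2 fold change was 5.95 (SE 0.237, 95% interval 5.40 to 6.49, adjusted p = 1.69e-06). The mast cell markers, a cell type known for ST2, summed to 32.3, 80.2 and 94.1 CPM in SA tumors and to 46.0, 29.4 and 31.3 CPM in WT penises. These sums overlapped, and 1 of 6 mast cell markers, Kit, was higher at the adjusted p alone (log2 fold change 1.76, adjusted p = 0.00118). All 6 had log2 fold changes above 0, from 0.26 for Mcpt4 to 1.79 for Ms4a2, with a median of 1.13. Ms4a2 did not overlap between the groups and narrowly missed the threshold (adjusted p = 0.0106). None of the 5 T cell markers tested by edgeR passed (smallest adjusted p = 0.0891, Cd3e), and Foxp3, the marker of regulatory T cells, had a log2 fold change of -0.00364. The sum of the T cell markers was 13.4 to 23.6 CPM in SA tumors and 11.9 to 17.1 CPM in WT penises. Of that sum, Foxp3 held 9.09 to 10.8 CPM in SA tumors and 9.29 to 11.0 CPM in WT penises.

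Il1rl1 produces a soluble and a membrane form of ST2, and both have rows in the data. The membrane form (NM_001025602) has 11 exons and 567 codons, while the soluble form (NM_010743) has 8 exons and 337 codons. The membrane form has 3 exons that overlap no exon of the soluble form, 3965 bases in all, and another row (NM_001294171) gives the soluble form a start 10057 bases upstream of that of the membrane form. Reads in the exons that the forms share were counted in each row. The soluble row held 620, 752 and 3595 reads in SA tumors and 6, 16 and 9 in WT penises. The membrane row held 430, 572 and 3245 reads in SA tumors and 44, 44 and 46 in WT penises. Both rows rose, the membrane row by a log2 fold change of 3.48 (SE 0.247, adjusted p = 1.00e-05 in an edgeR fit of all transcript rows). The ratio of the soluble to the membrane row was 1.44, 1.31 and 1.11 in SA tumors and 0.136, 0.364 and 0.196 in WT penises. Every SA library thus had more reads in the soluble row and every WT library more in the membrane row, by 38, 28 and 37 reads in WT penises. The size of the Il1rl1 change depends on the row that stands for the gene, since the first listed row gave 3.48 and the sum of rows 4.75. Il18r1 starts 137 bases after the last membrane exon of Il1rl1 on the same strand, and whether WT reads in that exon came from Il1rl1 was not tested.

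**Figure D3:**
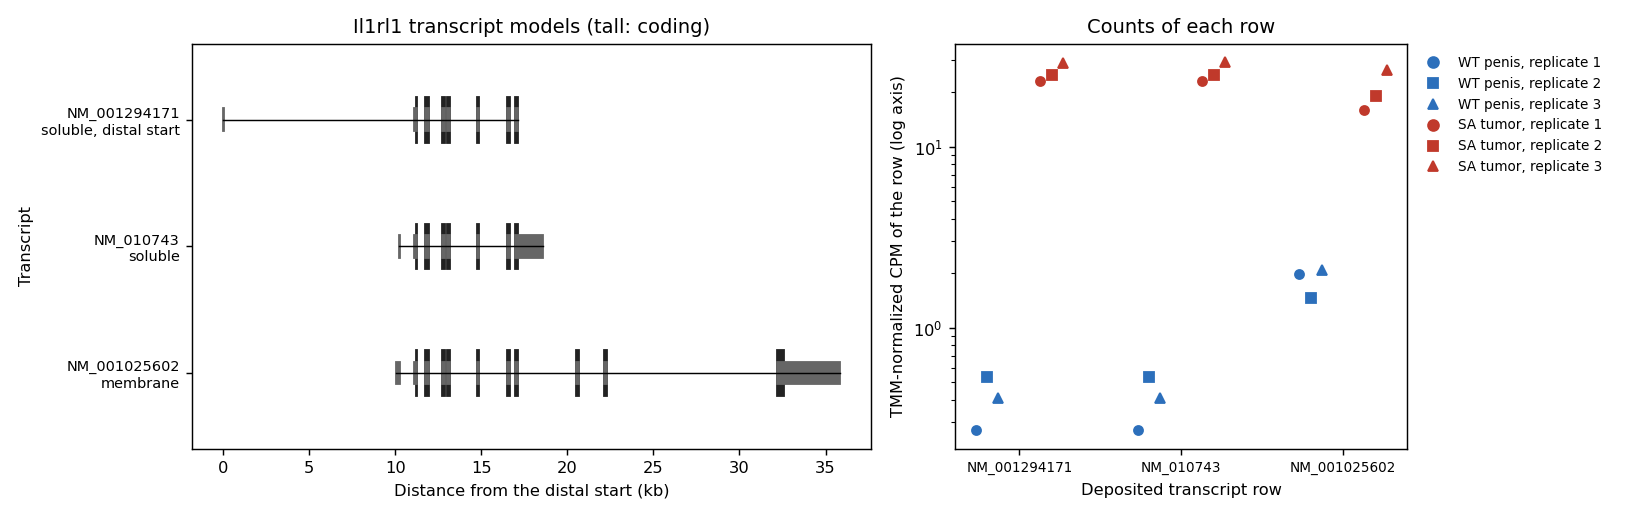
Left, exon models of the Il1rl1 rows, with distance from the distal start in kilobases and coding parts drawn taller; right, TMM-normalized CPM of each row in each library on a log axis. The GENCODE model drawn for NM_001294171 has 1216 exon bases and the deposited row 2904. For NM_010743 these are 2661 and 3071, so the drawing is not exact for either soluble row. Both soluble rows were below 1 CPM in WT penises and the membrane row was at 1.47 to 2.10 CPM, while all 3 rows lay between 16.0 and 29.2 CPM in SA tumors.

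The chromosome 1 cluster around Il1rl1 was read gene by gene. Of the 6 genes from Il1r2 through Il1r1, Il1rl2, Il1rl1 and Il18r1 to Il18rap, Il1rl1 and Il18rap were higher, Il1rl2 was lower and the other 3 did not pass. Il18rap, the second chain of the IL-18 receptor, was 8.62, 23.7 and 26.4 CPM in SA tumors and 0.859, 1.03 and 0.638 CPM in WT penises (log2 fold change 4.52, SE 0.480, adjusted p = 0.000166). Il18r1, the chain that binds IL-18, was 2.23, 3.44 and 5.70 CPM against 6.55, 5.91 and 5.06 CPM and did not pass (log2 fold change -0.60, adjusted p = 0.158), although its first listed transcript row did (-1.16, adjusted p = 0.00851). The ratio of Il18rap to Il18r1 per kilobase was 3.29, 5.86 and 3.94 in SA tumors and 0.111, 0.149 and 0.107 in WT penises. Il1rl2, the IL-36 receptor gene between Il1r1 and Il1rl1, fell (log2 fold change -1.32, adjusted p = 0.000292). The flanking gene Map4k4 had a log2 fold change of 0.29 (adjusted p = 0.0227), and Slc9a4, an ion exchanger gene beyond Il18rap, rose by a log2 fold change of 5.93 (adjusted p = 1.15e-05).

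Il1rap (row NM_008364, whole gene on chromosome 16, 26581704 to 26730117, plus strand), the chain that IL1R1 and ST2 share, was at 26.9, 20.8 and 29.9 CPM in SA tumors and at 30.6, 37.3 and 39.7 CPM in WT penises. The groups did not overlap, and the log2 fold change of -0.47 did not pass (SE 0.162, adjusted p = 0.0381). Its row for the shorter form (NM_134103, 360 codons against 570) held 0.239 ± 0.0246 times the reads of the row used for SA tumors and 0.237 ± 0.0404 times for WT penises (SD, n = 3 each). Unlike Il1rl1, the balance of its rows differed by less than the spread between libraries. Casp1 (NM_009807, chromosome 9, 5298517 to 5307265, plus strand) was at 20.4, 14.6 and 23.8 CPM in SA tumors and at 26.1, 25.7 and 23.9 CPM in WT penises. The highest SA and the lowest WT value nearly met, and the log2 fold change was -0.36 (95% interval -0.76 to 0.04, adjusted p = 0.118).

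Levels were compared between genes per kilobase of the row. In WT penises the order was led by Il18, Il1rn and Il1r2, at 23.2 ± 1.53, 21.1 ± 3.05 and 21.1 ± 1.78 CPM per kilobase (SD, n = 3), whose ranges overlapped. Casp1 at 16.7 ± 0.786 stood apart below them and above Il33 at 10.2 ± 0.213 and Il1r1 at 10.1 ± 1.20 CPM per kilobase, which overlapped. Il1rap, Il1a, Il1b and Il1rl1 followed with ranges apart from each other, at 7.83 ± 1.03, 3.65 ± 0.605, 0.459 ± 0.262 and 0.132 ± 0.0428 CPM per kilobase. In SA tumors Il1b at 50.5 ± 27.6 and Il1rn at 48.0 ± 4.15 CPM per kilobase led with overlapping ranges, and Il1rn was apart from the next gene, Il1r2, at 14.8 ± 7.02. From Il1r2 down to Il1rap at 5.65 ± 1.02 CPM per kilobase, each gene overlapped with the next. Il1b thus ranked 9 of 10 in WT penises and 1 of 10 in SA tumors by the mean. The first place rests on SA library 3, with 82.1 CPM per kilobase of Il1b against 47.3 of Il1rn, since Il1rn was above Il1b in SA library 1 (52.5 against 30.8) and in SA library 2 (44.2 against 38.7).

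The rest of the pathway was taken from 5 lists of 37 genes, of which 31 passed the filter on low counts. At both thresholds 6 were higher and 0 lower, against 9.41% higher and 3.59% lower over all genes tested. No decrease reached a log2 fold change of 2 in size (the lowest was -1.59, Pycard). An unadjusted p under 0.05 with the same fold rule therefore also gave 0 lower, as did DESeq2. At the adjusted p alone 8 were higher and 6 lower, against 20.1% and 17.5%, which is close to the background. Their median log2 fold change was 0.31, against 0.03 for all genes tested. The calls past both thresholds were Il18rap and 5 inflammasome sensors. Nlrp3, the sensor best known for IL-1β release, was 6.50, 7.38 and 20.5 CPM in SA tumors and 0.407, 0.267 and 0.592 CPM in WT penises (log2 fold change 4.81, SE 0.591, adjusted p = 0.000336), with the highest value in SA library 3. Without that library the log2 fold change of Nlrp3 was 4.07. Nlrc4, which senses bacterial flagellin and secretion systems, rose by a log2 fold change of 3.06, the pyrin gene Mefv by 3.30, Nlrp1b by 2.32 and the DNA sensor Aim2 by 2.21. Nlrp1b, at 2.16 ± 0.833 against 0.443 ± 0.244 CPM (SD, n = 3 each), missed the threshold without WT library 2 (adjusted p = 0.0173) and without WT library 3 (adjusted p = 0.0138). Of the 6 calls past both thresholds, 4 were left without WT library 2, where Aim2 was at 1.92, 5 without WT library 3, and 5 without SA library 3, where Nlrp1b was at 1.94.

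Of the other 4 inflammasome and pyroptosis genes tested, 1 fell at the adjusted p alone and 3 did not pass. Pycard, which encodes the adaptor ASC that links sensors to caspase-1, fell from 176, 143 and 133 CPM in WT penises to 41.9, 55.9 and 52.3 CPM in SA tumors (log2 fold change -1.59, SE 0.148, adjusted p = 5.35e-05). Gsdmd, the pore former through which IL-1β leaves cells, had a log2 fold change of -0.49 (adjusted p = 0.197), but was called lower without SA library 3. Casp4, the intracellular lipopolysaccharide sensor, had one of -0.68 (adjusted p = 0.0232), but DESeq2 called it lower. Both of these calls were at an adjusted p under 0.01 alone. Casp8 was at 0.42 (adjusted p = 0.0191). The neutrophil serine protease genes Elane, Prtn3 and Ctsg, whose products can cleave IL-1 family precursors and are transcribed mainly in the bone marrow, summed to 0.111 to 0.991 CPM in SA tumors and to 0.182 to 0.316 CPM in WT penises, and none was tested.

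Among the other ligands, the IL-36 genes appeared under their older symbols. Il1f6 (IL-36α) was at 74.5 ± 16.6 against 84.3 ± 26.2 CPM, Il1f9 (IL-36γ) at 77.9 ± 7.49 against 88.8 ± 16.7 CPM, and Il1f8 (IL-36β) at 41.8 ± 3.18 against 29.6 ± 5.90 CPM, SA tumors before WT penises (SD, n = 3 each). None of these agonists passed, with adjusted p-values of 0.562, 0.311 and 0.0268. Il1f5, the IL-36 receptor antagonist, fell by 0.72 on the log2 scale (adjusted p = 0.000924), as did the receptor Il1rl2. Il1f10 (IL-38) had a log2 fold change of 1.19 (adjusted p = 0.0339). The soluble inhibitor of IL-18, Il18bp, was at 0.52 (adjusted p = 0.0754), and the inhibitory receptor Sigirr at 0.36 (adjusted p = 0.0882).

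Of 12 genes that carry the signal from the receptors, 2 rose and 3 fell at the adjusted p alone, near the background of 20.1% and 17.5%, and none reached a log2 fold change of 2. The kinase gene Irak1 rose by 0.51 (adjusted p = 0.00402) and the ubiquitin ligase gene Traf6 by 0.65 (adjusted p = 0.00732), and each lost its call in 4 of the 6 fits that left out 1 library. Tollip, an adaptor that restrains IRAK1, fell from 244 ± 10.6 to 103 ± 3.21 CPM (SD, n = 3 each, log2 fold change -1.24, adjusted p = 1.34e-05). Irak2 fell by 1.23 (adjusted p = 0.000243) and the ubiquitin ligase gene Peli1 by 0.86 (adjusted p = 0.00114) on the log2 scale. The common adaptor Myd88 had a log2 fold change of -0.24 (adjusted p = 0.0818).

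**Figure D4:**
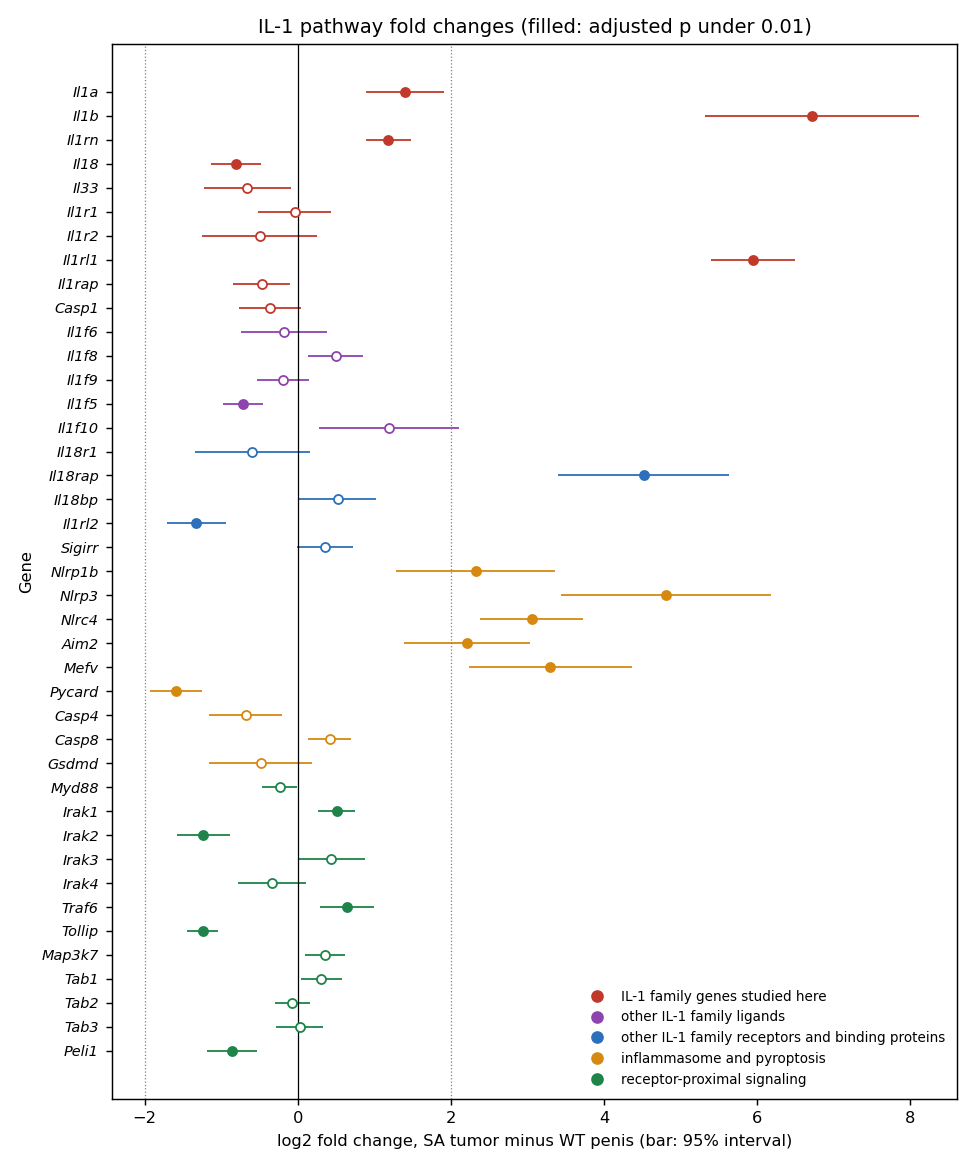
Log2 fold change of SA tumors over WT penises for the 10 genes and the 31 other pathway genes tested, with 95% intervals, filled where the adjusted p was under 0.01 and with dotted lines at -2 and 2. Il1b, Il1rl1, Il18rap and Nlrp3 lie above 4, whereas Pycard, Il1rl2, Tollip and Irak2 lie between -2 and -1.

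The cell type markers showed which other signals moved in the same libraries. The neutrophil list had the largest ratio of SA to WT sums, and 0 of 8 macrophage and 0 of 5 tested T cell markers were higher at edgeR's adjusted p alone, with 0 of either list at an unadjusted p under 0.05 or by DESeq2. Cd163 among the macrophage markers fell (log2 fold change -1.57, adjusted p = 0.00250). Of the 4 dendritic and Langerhans cell markers 1 fell, the Langerhans cell marker Cd207 (log2 fold change -2.59, adjusted p = 0.000398), and Flt3 had a log2 fold change of 1.72 (adjusted p = 0.0123). All 5 smooth muscle markers fell past both thresholds. The part of these shifts in the results above was not tested.

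**Figure D5:**
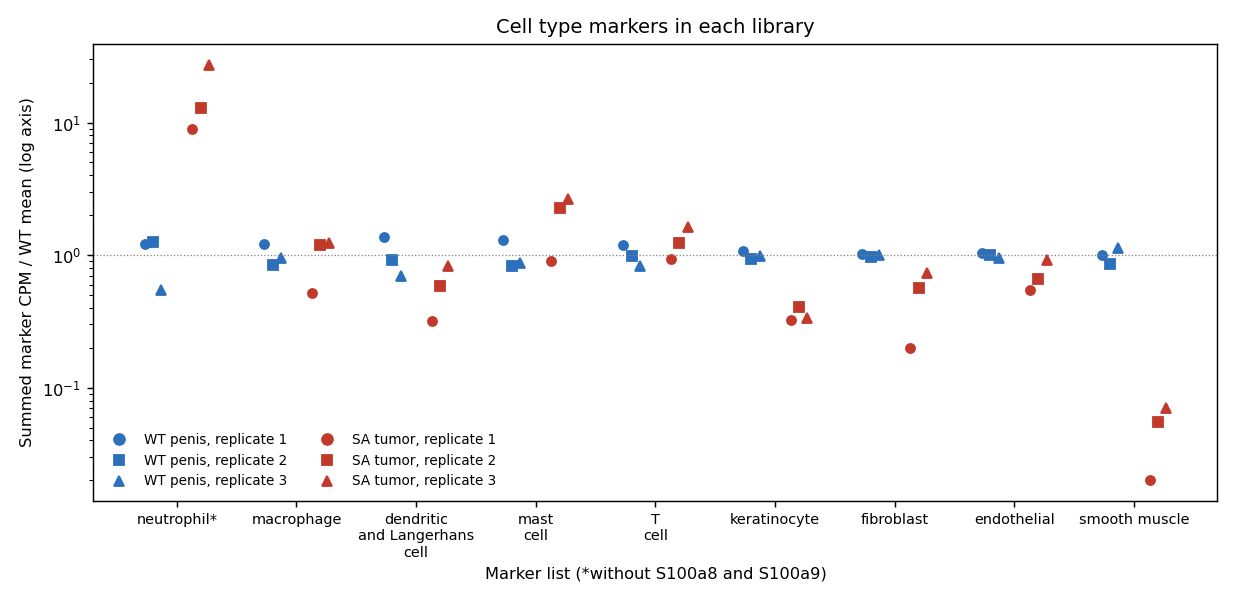
Summed CPM of each marker list in each library, divided by the WT mean, on a log axis, with WT penises in blue and SA tumors in red. The neutrophil list lies above the WT libraries in every SA tumor. The macrophage, dendritic and Langerhans cell, mast cell and T cell lists overlap. The keratinocyte, fibroblast, endothelial and smooth muscle lists lie below the WT libraries in every SA tumor, the endothelial list by a narrow gap.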

How the data were processed

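RNA of 3 SA tumors and 3 WT penises was sequenced as stranded 76 nt paired-end libraries. Per the labels, reads were aligned to mm10 with TopHat and counted with HTSeq. The authors deposited raw counts per RefSeq transcript row, and FPKM and TPM values derived from it. FPKM was used here only to read the length of a row, and the TPM values that the authors deposited only as an alternative for the ratios. A read that fits several transcripts was counted in each, so the row with the highest mean count stood for its gene (33068 rows, 24063 symbols).

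The main test was run in edgeR 4.0.16 under R 4.3.3 (filterByExpr with a minimum count of 10, TMM, robust quasi-likelihood F-test, Benjamini-Hochberg over 16336 genes). Calls required an adjusted p under 0.01, with or without a log2 difference of 2 or more. The scripts were tested on simulated data. The alternatives were DESeq2 (run here as version 1.42.0), 3 other scalings, 2 other filters, other choices of the row, a replicate block and each library left out. The study also used DESeq2, in a version not given in the sources used here. P-values weigh the difference between the groups against the spread between these mice. Intervals cover counting error and that spread only, and the floor is a fixed count of 3 in each library.

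Members and gene lists were chosen with earlier results of these data known. Named were the 10 members, the genes of the pathway and marker lists, the neighbors in the gene clusters, and the 5 genes most like Il1b over the 6 libraries. Positions of genes are from GENCODE vM21 (GRCm38) and span the whole gene, not only the row named beside them. Proteins, SAP tumors and human data were not analysed here.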

Additional observations from a re-analysis of the deposited data

How the results depend on the processing

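The calls of Il1a, Il1b, Il1rn and Il1rl1 held under every alternative run, and the 2 calls past both thresholds (Il1b and Il1rl1) also did. The number of the 10 genes that were lower at the adjusted p alone was 1, went to 0 when libraries were scaled by their totals only, and ranged from 1 to 3 with each library left out. It was 3 (Il18, Il33 and Il1r2) without the third SA tumor. The number of other pathway genes that were higher at the adjusted p alone was 8, rose to 13 with library totals only, and ranged from 5 to 9 with each library left out, with 5 without the second WT penis. Scaling by library totals moved the median of all genes by 0.29, and under it Il1r1 turned to 0.25, Il1f6 to 0.11 and Il1f9 to 0.10 on the log2 scale. Il1r1 was also 0.029 with upper-quartile scaling. With each library left out, Il1r1 ranged from -0.30 to 0.14 and Il1f6 from -0.37 to 0.086. None of these 3 genes passed the test in any of those fits.

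The replicate numbers did not pair the libraries. Residuals of libraries with the same number correlated at -0.13, -0.10 and 0.02, and 1 of 6 libraries was closest to the library of the other group with its own number. With the replicate number as a block, the counts among the 10 genes were again 4 higher and 1 lower, and 7 other pathway genes were higher in place of 8, since Traf6 (0.64) had an adjusted p of 0.0202. For genes near the floor, such as Il1b and Il1rl1 in WT penises, counts of 6 to 29 limit the precision of the fold change. With 3 libraries a group, a log2 difference as small as that of Il33 or Il1r2 could be called or missed depending on 1 library. Il1rap was missed whichever library was left out (edgeR adjusted p from 0.0191 to 0.0959).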

Other observations

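The 5 genes whose log2 CPM was most like that of Il1b over the 6 libraries, among 14950 genes that averaged 1 CPM or more, were Vmp1, Trem1, S1pr2, Gpr123 and Fhl3, with Pearson correlations of 0.997 to 1.00. The correlations are a description, since the 6 libraries fall into 2 groups that share tissue and any gene with a group difference and a high value in SA library 3 scores well. Trem1, a receptor of neutrophils and monocytes that amplifies inflammatory signals, was at 6.17, 6.79 and 16.3 CPM in SA tumors and at 0.0904, 0.134 and 0.0456 CPM in WT penises, where its reads were at or near the floor. Vmp1, which encodes a membrane protein needed for autophagy, was at 156 ± 16.2 CPM in SA tumors and 62.2 ± 6.63 CPM in WT penises (SD, n = 3 each).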
